A study of Mus musculus with 2 samples.

Results

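Histone-modifying enzymes add or remove methyl and acetyl groups on lysines of the histone tails. This account follows the mouse genes that encode them, taken as the protein-coding genes on chromosomes 1 to 19 and X whose symbol begins with Kdm, Kmt, Setd, Ehmt, Nsd, Ezh, Suv39h, Hdac, Sirt or Kat and a digit. The rule took 68 of 21755 coding genes and used no measured value. It took 25 genes of methyltransferases and related SET-domain proteins, 17 of demethylases and related JmjC proteins, 8 of acetyltransferases, 11 of classical deacetylases and 7 of sirtuins. The data are ChIP-seq of H3K79me2 in unstimulated bone-marrow-derived macrophages, primary cells of the mouse strain C57BL/6J. They form 1 group of 2 biological replicates, each started from 10 ng of DNA. The labels give both replicates 1 donor identifier and record neither sex nor a known age. Whether separate animals or cultures were used is not recorded, so the spread between the replicates may be technical.

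Lysine methylation is written by SET-domain enzymes and by Dot1l, and erased by flavin-dependent and JmjC demethylases. Acetyl groups are set by acetyltransferases and removed by zinc-dependent deacetylases and NAD-dependent sirtuins. H3K79me2, the modification mapped here, is the product of Dot1l and lies over the early part of transcribed genes. In macrophages several of these enzymes are known regulators of inflammatory gene expression, among them the H3K27 demethylase Kdm6b, which endotoxin induces, and the deacetylase Hdac3, which works with the co-repressor Ncor1.

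The term marked is used for a gene with 200 bp or more under peaks in the 3 kb that follow its outermost annotated 5′ end. Peaks come from the authors' replicated list, which draws on both replicates, unless another list is named. The lists of replicate 1 and replicate 2 were each called on that replicate alone. Replicate 1's list covered 63.5 Mb, replicate 2's 114 Mb and the replicated list 93.2 Mb. The files hold no read counts, so the depth is unknown, and an unmarked gene is one without a called peak there, not one shown to lack the modification. The cells were profiled in bulk, so a modification in fewer cells cannot be told apart from a weaker one in all of them. Of 10 macrophage marker genes 9 were marked, and Csf1r, the tenth, was marked at another transcript start. None of 24 markers of T, B, dendritic, erythroid, neutrophil or fibroblast cells had a covered base in the replicated list, and 1 of them, Cd4, was marked in replicate 2's list. With 1 group there is no contrast to test, and every count below is a description read against the same count over all coding genes.

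The 6 start regions printed here are from starts with and without called peaks in the 3 kb downstream. They are RefSeq promoters (GRCm38.p6, the same assembly as mm10), from 250 bases before to 50 after a RefSeq start, read on the gene's strand. Capitals mark each CpG. The first pair is an acetyltransferase gene without a peak in the replicated list, Kat2a at chr11:100712418-100712717 (minus strand), and its marked paralogue Kat2b at chr17:53566721-53567020 (plus strand). The other pairs each set an outer start without a peak in the 3 kb downstream beside an inner start of the same gene that has one there. They were chosen after their values were seen. Kdm4c has its outer start at chr4:74242247-74242546 and its inner one at chr4:74251629-74251928 (plus strand), and Kdm2b at chr5:122989050-122989349 and chr5:122900301-122900600 (minus strand). The outer RefSeq start of Kdm2b lies 724 bp inside the outermost GENCODE one.
Kat2a: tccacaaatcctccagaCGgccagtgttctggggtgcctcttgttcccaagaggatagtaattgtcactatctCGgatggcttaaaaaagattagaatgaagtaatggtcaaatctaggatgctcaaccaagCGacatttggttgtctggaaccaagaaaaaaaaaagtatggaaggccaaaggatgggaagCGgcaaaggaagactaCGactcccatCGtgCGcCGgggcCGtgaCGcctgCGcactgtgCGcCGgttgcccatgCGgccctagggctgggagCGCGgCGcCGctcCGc
Kat2b: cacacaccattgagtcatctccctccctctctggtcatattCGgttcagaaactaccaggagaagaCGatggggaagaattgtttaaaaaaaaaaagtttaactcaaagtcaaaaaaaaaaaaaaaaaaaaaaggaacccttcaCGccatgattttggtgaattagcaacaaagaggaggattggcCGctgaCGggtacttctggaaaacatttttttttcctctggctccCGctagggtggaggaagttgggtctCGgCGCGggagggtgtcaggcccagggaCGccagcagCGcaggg
Kdm4c outer: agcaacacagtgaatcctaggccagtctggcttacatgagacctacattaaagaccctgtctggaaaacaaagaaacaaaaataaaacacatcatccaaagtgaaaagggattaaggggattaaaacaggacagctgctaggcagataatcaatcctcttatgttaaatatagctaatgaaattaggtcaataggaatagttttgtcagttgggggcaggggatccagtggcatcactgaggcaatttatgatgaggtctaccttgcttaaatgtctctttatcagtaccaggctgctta
Kdm4c inner: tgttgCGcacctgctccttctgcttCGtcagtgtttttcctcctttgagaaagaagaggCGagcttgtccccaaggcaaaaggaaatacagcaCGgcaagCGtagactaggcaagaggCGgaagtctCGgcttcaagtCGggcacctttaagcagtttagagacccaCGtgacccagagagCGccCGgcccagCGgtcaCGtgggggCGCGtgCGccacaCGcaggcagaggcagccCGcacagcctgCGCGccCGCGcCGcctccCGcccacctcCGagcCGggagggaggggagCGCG
Kdm2b outer: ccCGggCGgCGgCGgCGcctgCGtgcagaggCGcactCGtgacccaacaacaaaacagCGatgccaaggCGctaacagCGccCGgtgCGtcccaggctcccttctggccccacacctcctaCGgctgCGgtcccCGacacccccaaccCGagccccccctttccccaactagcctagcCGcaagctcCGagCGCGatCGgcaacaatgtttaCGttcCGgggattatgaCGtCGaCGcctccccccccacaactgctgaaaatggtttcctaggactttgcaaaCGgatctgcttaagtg
Kdm2b inner: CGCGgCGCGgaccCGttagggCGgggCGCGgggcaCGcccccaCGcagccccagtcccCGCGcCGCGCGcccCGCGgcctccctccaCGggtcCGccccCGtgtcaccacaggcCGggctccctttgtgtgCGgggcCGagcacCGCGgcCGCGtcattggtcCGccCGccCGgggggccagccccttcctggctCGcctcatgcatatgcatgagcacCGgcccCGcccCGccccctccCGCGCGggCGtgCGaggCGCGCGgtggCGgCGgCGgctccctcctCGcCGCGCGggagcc
These promoters hold 19, 11, 0, 28, 28 and 49 CpG in that order. None of the 6 has a base under the replicated list. The 3 kb after the RefSeq start of Kat2b hold 2380 covered bases, those after the inner start of Kdm4c 2568 and those after the inner start of Kdm2b 1859, against 0 for the other 3. In replicate 2's list the 3 kb after the start of Kat2a hold 632. By GENCODE annotation, 252 of the 300 bases at Kat2a and 250 at the outer start of Kdm4c lie upstream of the gene, and the rest are 5′ exon with UTR. Kat2b has 140 bases upstream, 105 in an exon and 55 in an intron, and the outer promoter of Kdm2b 257 in an exon with UTR and 43 in an intron. The inner start of Kdm4c lies wholly in an intron of the longer transcripts. The inner promoter of Kdm2b has 55 bases in an exon and 245 in an intron.

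H3K79me2 marked 45 of the 68 enzyme genes (66.2%), against a background of 30.6% of all coding genes. In replicate 1's own list 41 were marked (background 27.5%) and in replicate 2's 49 (background 35.9%). All 41 of replicate 1 were among the 49, so 41 were marked in both lists (background 27.4%). None was marked in replicate 1 alone (background 0.046%) and 8 were marked in replicate 2 alone (background 8.49%). Another 6 genes were marked at a transcript start further in, which brings the count at any annotated start to 51 (75%, background 33.2%). Only 16 genes had no base under the replicated list (background 65.6%). The call did not hang on its minimum: the least covered marked genes had 839 bp (Sirt6), 1198 bp (Kat8) and 1211 bp (Kat5) in the window, and all 23 unmarked genes had 0.

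**Figure D1:**
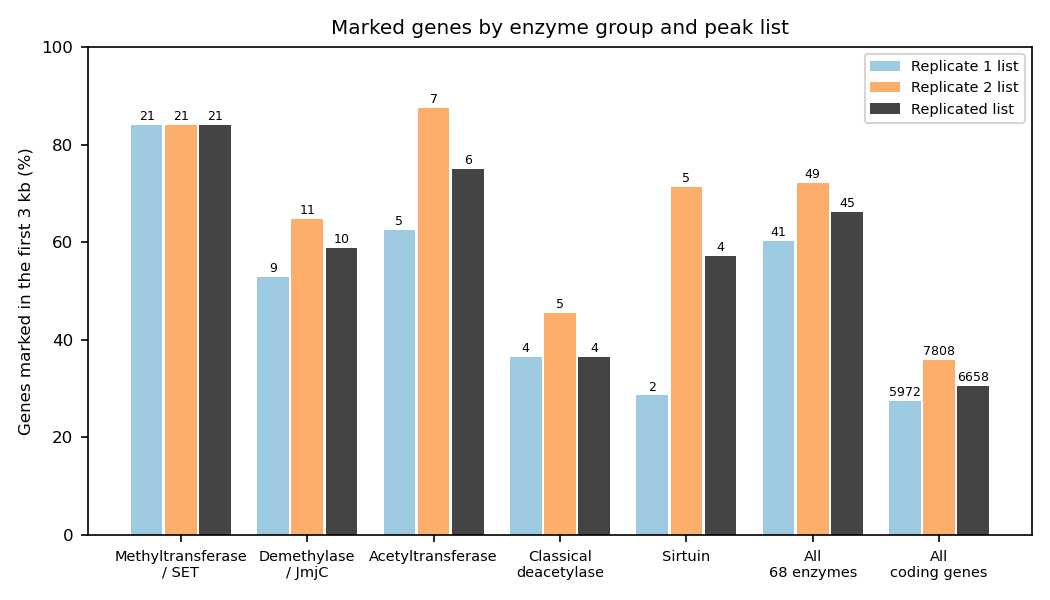
Share of genes marked in their first 3 kb, in percent, for the 5 enzyme groups, all 68 enzyme genes and all coding genes. Bars give the list of replicate 1, the list of replicate 2 and the replicated list, and the number over each bar is the count of marked genes. The methyltransferase group has 21 marked genes in each list, and the sirtuins range from 2 to 5.

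The enzyme genes are longer than most genes and more often have CpG-rich starts, and the share of marked genes differs with both. Their median length was 41648.5 bp against 17414 bp for all coding genes. Coding genes were split by length into 5 bins of equal size. In the shortest bin, 0 of 1 enzyme gene was marked against 15.8% of all coding genes, and in the next 3 of 7 against 25.6%. In the middle bin, 10 of 15 enzyme genes from 11990 to 25081 bp were marked against 37% of all coding genes of that length. From 25081 to 58384 bp the count was 14 of 18 against 41.8%, and above 58384 bp it was 18 of 27 against 32.8%, so the share over all coding genes did not rise steadily with length. A start is called CpG-rich here where the 500 bp on both sides have an observed to expected CpG ratio of at least 0.6 and at least 50% GC. Of 49 enzyme genes with such a start 41 were marked (83.7%), against 54.1% of all coding genes with one. Of the 19 without, 4 were marked (21.1%), against 11.6%. These 4 were Kdm4a, Kat8, Hdac3 and Sirt6, with ratios from 0.541 to 0.585, just under the limit. Unmarked genes lay in the same range, among them Kat2a (0.567), Sirt4 (0.566), Sirt5 (0.567) and Nsd1 (0.543). The 8 unmarked genes with CpG-rich starts were Kmt5c, Setd4, Setd6, Kdm1b, Kdm4d, Kdm5b, Kdm8 and Hdac6.

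The methyltransferases had the largest marked share of any group in the replicated list, with 21 of 25 genes (84%, background 30.6%). The count was also 21 in replicate 1's list (background 27.5%) and in replicate 2's (background 35.9%). In replicate 2's list the acetyltransferases had a larger share, 7 of 8 (87.5%). All of the methyltransferase genes but Nsd1 have a CpG-rich start, and 54.1% of all coding genes with one were marked. Among the classical deacetylases only Hdac1, Hdac2, Hdac5 and Hdac6 have one. Groups were not compared within a start type, and the part of start type in their shares was not tested. All 8 genes of the H3K4 methyltransferase family were marked. Kmt2c, which encodes the catalytic subunit of a complex that methylates H3K4 at enhancers, had the most covered bases of the 68 genes. Peaks covered 72581 bp (32.0%) of it on chromosome 5 from 25271798 to 25498783, with 47597 bp in replicate 1's list and 77245 bp in replicate 2's. Its paralogue Kmt2d had 15281 bp under the replicated list. The replicates stood far apart there, with 6046 bp in replicate 1 and 24889 bp in replicate 2, although all 3000 bases of the window were covered in both. Kmt2e, a family member not known to methylate H3K4, had 35912 bp (51.5%), with 29770 bp in replicate 1 and 39347 bp in replicate 2.

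Kmt2a and Kmt2b, which act at promoters, differed in reach though not in the window. Kmt2a had 2647 bp of its window and 29535 bp of the gene covered, and Kmt2b 2692 bp and 3480 bp. These were 37.9% of the 77942 bp of Kmt2a and 17.5% of the 19869 bp of Kmt2b. The window peaks of Kmt2a and Kmt2b had folds of 18.2 and 18.6 over the control, the authors' values, at percentiles 84.7 and 85.5 of the replicated list. Setd1a and Setd1b, the catalytic subunits of the complexes that set most H3K4 trimethylation, had 2073 bp and 12470 bp covered. In replicate 1 these were 1762 bp and 8064 bp, and in replicate 2 they were 2583 bp and 16067 bp, so Setd1b had more than Setd1a in both. Setd7, which monomethylates H3K4 and non-histone proteins, had 9785 bp.

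The H3K36 methyltransferases carried some of the longest coverage. Nsd3 had 53715 bp (45.5%) covered, with 44286 bp in replicate 1 and 58114 bp in replicate 2, and its longest uninterrupted block of 41871 bp was the longest of any marked enzyme gene. Nsd2 had 35200 bp, with 31236 bp and 36955 bp in the replicates. Setd2, the enzyme of H3K36 trimethylation, had 44305 bp (51.5%) covered, in 6 blocks. The replicates differed in extent here, since replicate 1 had 15720 bp and replicate 2 had 50705 bp, while the window held 2395 bp and 2437 bp. Nsd1 was unmarked at its outermost start and had 44992 bp covered, 24027 bp in replicate 1 and 51852 bp in replicate 2. Its coverage began 3271 bp from that start, and the window of a basic-set transcript that starts 953 bp further in held 682 bp.

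All 4 H3K9 and both H3K27 methyltransferase genes were marked. Ehmt1 and Ehmt2, which encode the paired enzymes of H3K9 dimethylation in euchromatin, had 32110 bp and 4579 bp covered. The genes are 129687 bp and 15584 bp long, so the covered share was 24.8% in Ehmt1 and 29.4% in Ehmt2. The heterochromatin enzymes Suv39h1 and Suv39h2 had 3442 bp and 2083 bp. Suv39h2 had the lowest fold of all marked members, 2.87, at percentile 5.26 of the replicated list, with 1167 bp in replicate 1 and 1216 bp in replicate 2. Of the alternative catalytic subunits of Polycomb repressive complex 2, Ezh2 had 17732 bp covered and Ezh1 7507 bp. The replicates stood close at both, with 16302 bp and 17510 bp for Ezh2 and 6458 bp and 7516 bp for Ezh1.

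The remaining SET-domain genes were split. For H4K20, the monomethylating enzyme gene Kmt5a had 9715 bp covered and Kmt5b, whose product adds further methyl groups, had 13744 bp. Kmt5c, the paralogue of Kmt5b, had no base in any list. Setd5 had 35483 bp (46.6%), with 32771 bp and 39164 bp in the replicates, and Setd3, which methylates a histidine of actin, had 16753 bp. Setd6, which encodes a methyltransferase of the NF-kB subunit RelA, and Setd4 had none in any list.

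Among the demethylase and JmjC genes 10 of 17 were marked (58.8%, background 30.6%). In replicate 1 the count was 9 (52.9%, background 27.5%) and in replicate 2 it was 11 (64.7%, background 35.9%). The flavin-dependent pair was split. Kdm1a, an H3K4 demethylase of the CoREST complex, had 24665 bp (47.3%) covered, with 10843 bp in replicate 1 and 25566 bp in replicate 2. Kdm1b had no base under the replicated list or in replicate 1 and 1033 bp in replicate 2, all of it in the window. Of the H3K36 demethylase genes, Kdm2a had 36726 bp (43.8%), with 33777 bp and 41385 bp in the replicates, and Kdm2b was covered only from an inner start. The related Kdm7a had 24432 bp. Of the H3K9 demethylase genes, Kdm3b had 16389 bp, with the replicates at 15622 bp and 17126 bp, and Kdm3a had 4275 bp, with 1802 bp and 9494 bp.

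The Kdm4 genes, whose products act on trimethylated H3K9 and H3K36, showed 4 patterns. Kdm4a had 2306 bp covered, all inside the window, with 1165 bp of the gene in replicate 1 and 3403 bp in replicate 2. Kdm4b had 5174 bp, but replicate 1 held 434 bp of the gene and none of the window, against 13670 bp and 2433 bp in replicate 2. Kdm4c was covered from an inner start, with 18836 bp under the replicated list, 14825 bp in replicate 1 and 23876 bp in replicate 2. Kdm4d had no base in any list, although 2311 of the 3000 bases upstream of it were covered, on the side of its divergent neighbour Cwc15.

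The H3K4 trimethyl demethylases of the Kdm5 family were covered briefly or not at all. Kdm5c had 5707 bp, with 4376 bp in replicate 1 and 8312 bp in replicate 2, and Kdm5a had 5095 bp, with 2667 bp and 8862 bp. Kdm5b had none under the replicated list or in replicate 1. In replicate 2 it had 5971 bp in 3 blocks, which began 3125 bp from its start and so missed the window. In the H3K27 demethylase pair, the X-linked Kdm6a had 50762 bp (43.3%) covered, with 32766 bp in replicate 1 and 62079 bp in replicate 2. Kdm6b, on chromosome 11 from 69398508 to 69413675, had none under the replicated list or in replicate 1. Replicate 2's list held a single block of 1686 bp in Kdm6b, from 5027 to 6713 bp after its start, and the list from pooled alignments held 1563 bp there. Kdm8, a JmjC protein gene, had none in any list.

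**Figure D2:**
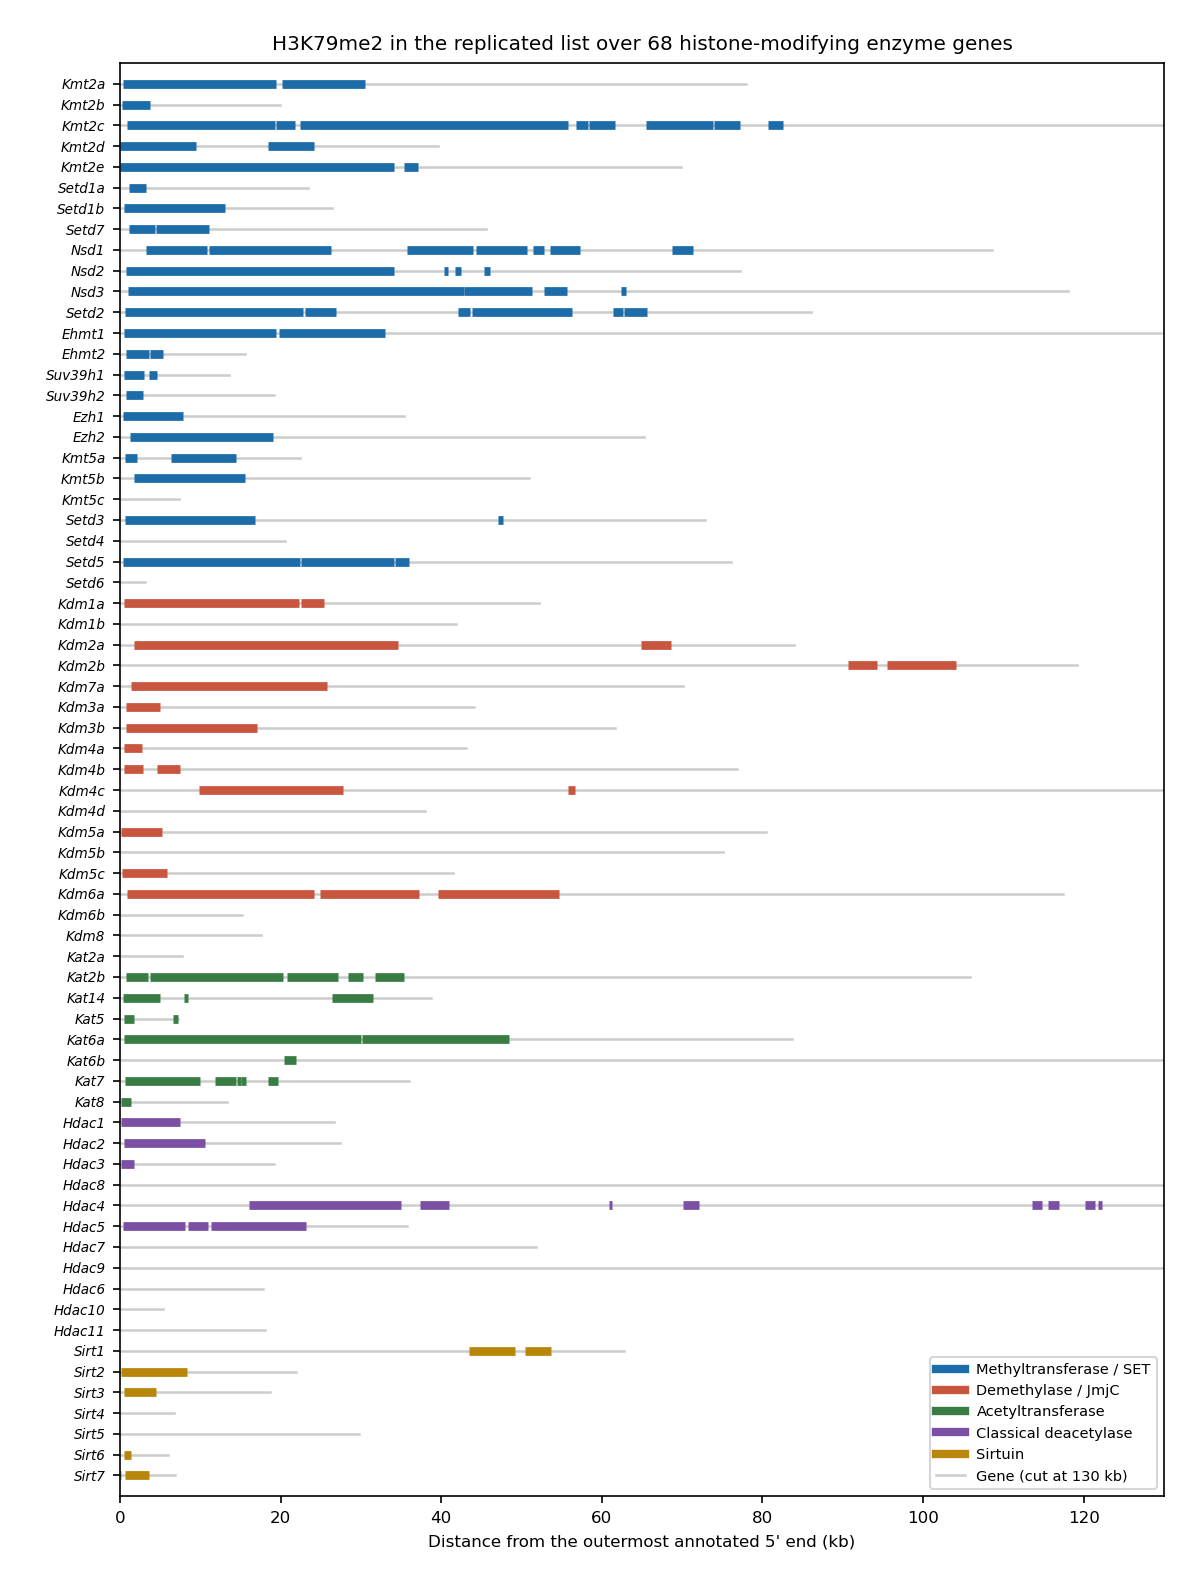
Each of the 68 enzyme genes as a grey line from its outermost annotated 5′ end, with the bases under the replicated list as thick coloured blocks by enzyme group; the x axis is the distance from that end in kb and stops at 130 kb. In most covered genes the first block starts within 2 kb of the left edge, and Nsd1, Kdm2b, Kdm4c, Kat6b, Hdac4 and Sirt1 begin later. The blocks of Hdac9 lie from 202926 bp on and so beyond the axis.

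Of the 8 acetyltransferase genes, 6 were marked (75%, background 30.6%). In replicate 1 the count was 5 (62.5%, background 27.5%) and in replicate 2 it was 7 (87.5%, background 35.9%). Kat6a, a MYST-family enzyme gene needed for haematopoietic stem cells, had the highest fold of the 68 genes, 30.6, at percentile 98.8 of the replicated list. Peaks covered 47757 bp (57.04%) of it on chromosome 8 from 22859535 to 22943259, with 43379 bp in replicate 1 and 51932 bp in replicate 2. Its paralogue Kat6b had 1535 bp, all from an inner start, with none in replicate 1 and 5449 bp in replicate 2. Kat7, which acetylates H3K14, had 14363 bp at a fold of 28.8, with 9701 bp and 16594 bp in the replicates. Kat8, the H4K16 acetyltransferase gene, had 1198 bp, with 636 bp and 1302 bp.

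Kat5, which encodes the catalytic subunit of the NuA4 complex, had 1895 bp under the replicated list and 2735 bp in replicate 2, and none in replicate 1. Of the 1895 bp, 1211 bp lie in the window, and the rest is a second block that runs to the last base of the gene. Kat5 overlaps the coding gene Rnaseh2c. In the SAGA pair shown above, Kat2b had 31256 bp covered (29.5%), with 27612 bp in replicate 1 and 30942 bp in replicate 2. Kat2a had none under the replicated list or in replicate 1 and 632 bp in replicate 2, all in the window. Kat14, of the ATAC complex, had 10197 bp covered. All 2581 covered bases of its window lie inside the overlapping coding gene Pet117, so its call cannot be told apart from that gene's.

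Classical deacetylase genes were marked in 4 of 11 cases (36.4%) in the replicated list and in replicate 1, against backgrounds of 30.6% and 27.5%. In replicate 2 the count was 5 (45.5%, background 35.9%), so the shares lay near the background. The 3 marked class I genes encode the catalytic cores of nuclear co-repressor complexes. Hdac2 had 10027 bp covered, with 9437 bp in replicate 1 and 10064 bp in replicate 2, and Hdac1 had 7325 bp, with 7132 bp and 9834 bp. Hdac3 had 1635 bp, with 840 bp and 1684 bp. Hdac8, the class I gene on chromosome X, had no base in any list over its 220721 bp.

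In class IIa, whose members shuttle between nucleus and cytoplasm, Hdac5 was marked. It had the largest covered share of any enzyme gene, 22040 bp or 61.7%, with 14906 bp in replicate 1 and 22406 bp in replicate 2. Hdac7 had no base in any list at any of its annotated starts. Hdac4 was covered from an inner start with 29430 bp, 10882 bp in replicate 1 and 59188 bp in replicate 2. Hdac9 had 40317 bp covered in 16 blocks, on chromosome 12 from 34660715 to 34714169, which is 202926 to 256381 bp from its outermost start. No annotated GENCODE start of Hdac9 had as much as 200 bp in its first 3 kb. Among the RefSeq transcripts, 1 predicted start lies inside the blocks, 223234 bp from the outermost GENCODE start. Replicate 1 had 36031 bp at Hdac9 and replicate 2 had 25049 bp. It was the 1 enzyme gene of 49 with bases in both lists at which replicate 1 had more (2.04%, against 1.61% of all such coding genes). In the remaining classes, Hdac6, a tubulin deacetylase gene, and Hdac11 had none in any list. Hdac10, which encodes a polyamine deacetylase, had 534 bp in replicate 2 alone.

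The sirtuins were the group whose calls differed most between the replicates. Of 7 genes, 4 were marked in the replicated list (57.1%, background 30.6%), 2 in replicate 1 (28.6%, background 27.5%) and 5 in replicate 2 (71.4%, background 35.9%). The share in replicate 1 is at the background. Sirt2, mostly a cytoplasmic deacetylase, had 8221 bp covered, with 4522 bp and 10323 bp in the replicates. Sirt7, a nucleolar enzyme, had 3142 bp, with 2533 bp and 4913 bp. These 2 were marked in both replicates. The mitochondrial deacetylase gene Sirt3 had 4001 bp under the replicated list and 4833 bp in replicate 2, and 688 bp in replicate 1, of which 17 bp were in the window. Sirt6, a chromatin-bound H3K9 deacetylase gene, had 839 bp under the replicated list, 1004 bp in replicate 2 and none in replicate 1. Sirt4, also mitochondrial, had 666 bp in replicate 2 alone, and Sirt5 had none in any list. Sirt1, a nuclear deacetylase that acts on histones and on NF-kB, was covered from an inner start, with 9059 bp, and 5543 bp and 9382 bp in the replicates.

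Of the 4 marked sirtuins, 3 have covered bases on their upstream side, and Sirt6 has none there. The 3 kb upstream of Sirt2, Sirt3 and Sirt7 held 2403 bp, 2948 bp and 3000 bp under the replicated list. Sirt2 and Sirt3 start head to head with Nfkbib and the proteasome gene Psmd13, and Sirt7 overlaps Mafg. Of the window bases, 640 in Sirt2 and 124 in Sirt7 lie in the other gene and none in Sirt3. Over all 45 marked enzyme genes, 8 had a covered base in the upstream 3 kb (17.8%, against 22.6% of marked coding genes). The other 5 were Setd3 (2469 bp), which starts head to head with Ccnk, and Setd1b (1735 bp), Setd5 (1660 bp), Kmt2e (1369 bp) and Kmt2d (213 bp). Without the bases inside other coding genes, 44 of the 45 would still be marked, all but Kat14.

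In 6 enzyme genes H3K79me2 lay in the first 3 kb after an inner start and not in the first 3 kb after the outermost one. They were singled out after their values were seen. In each, the first 3 kb after an inner start of GENCODE's basic set passed the 200 bp minimum. Counting every annotated start raised the marked share of the enzyme genes from 66.2% to 75%, and that of all coding genes from 30.6% to 33.2%. The folds of the peaks after the 6 inner starts ran from 3.38 (Kat6b) to 20.2 (Kdm2b). For Kdm2b, which encodes an H3K36 demethylase that binds CpG-rich DNA and recruits a variant Polycomb complex, the inner start lies 89468 bp into the gene at 122900355. It is known to give a shorter protein without the JmjC domain. Coverage after it came to 1854 bp under the replicated list and in replicate 2, and to 1677 bp in replicate 1. The whole of the 12288 bp covered in Kdm2b, with 10364 bp in replicate 1 and 15234 bp in replicate 2, lay beyond that start, and none of the first 90614 bp was covered. For Sirt1 the inner start lies 42669 bp in, with 2223 bp covered after it, 2201 bp in replicate 1 and 2223 bp in replicate 2. The promoter that RefSeq gives for Sirt1 is at this inner start.

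The inner start of Hdac4 lies 15358 bp in and was followed by 2318 bp, with 2250 bp and 2332 bp in the replicates. That of Kdm4c lies 9439 bp in and was followed by 2625 bp, with 2469 bp and 2676 bp. For Nsd1 the distance was 953 bp, and the replicates had 587 bp and 610 bp. Coverage of Nsd1 began 3271 bp from the outermost start, just past the 3 kb window, so its call depends on the window's edge. Kat6b, with an inner start 18336 bp in, had 972 bp under the replicated list and 999 bp in replicate 2, and none in replicate 1. The starts differ in CpG content. At the 6 outermost starts the observed to expected CpG ratio ran from 0.183 (Kdm4c) to 0.543 (Nsd1), and at the inner starts from 0.648 (Nsd1) to 1.06 (Sirt1). In each of the 6 genes it was higher at the inner start. The printed sequences of Kdm4c go from 0 to 28 CpG and those of Kdm2b from 28 to 49. The Kat2 pair goes the other way, with 19 CpG at the unmarked Kat2a and 11 at the marked Kat2b. Inner RefSeq promoters of Hdac7 with 35 and 31 CpG had 0 covered bases in the 3 kb after their starts. The inner starts were picked by their coverage, and a link with CpG content was not tested.

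**Figure D3:**
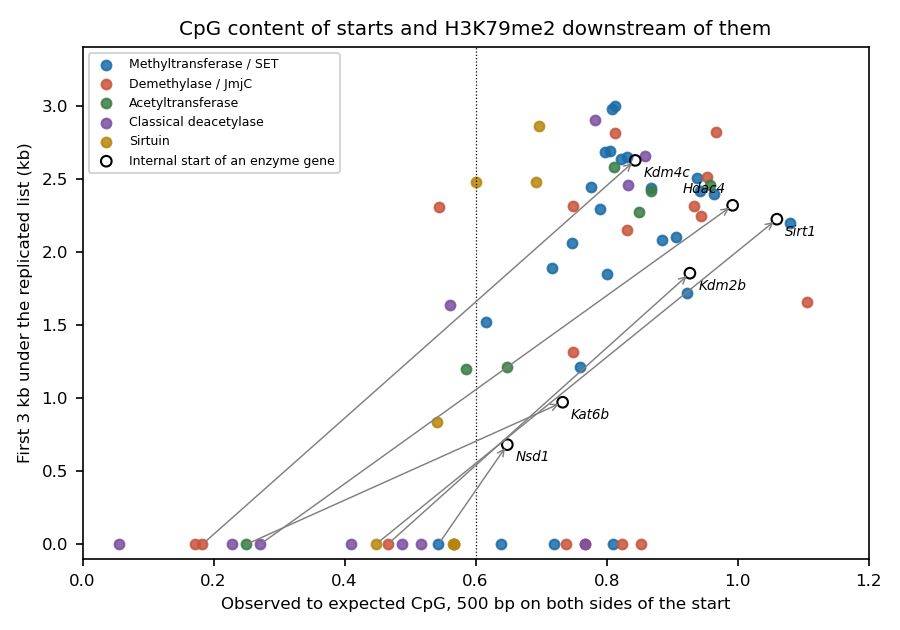
Bases of the first 3 kb under the replicated list, in kb, against the observed to expected CpG ratio of the 500 bp on both sides of the start. Filled points are the outermost starts of the 68 enzyme genes by group. Open circles are the inner starts of 6 genes, joined by arrows from their outermost starts. The dotted line is at 0.6. All 6 arrows run from 0 bp on the left of the line to a covered start on its right.

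Along the 45 marked genes, H3K79me2 began a median of 541 bp after the outermost start, against 377 bp over the marked ones among all coding genes. The range was 0 to 1784 bp, and Kmt2d and Sirt7 were covered from their first base. Of the first 500 bp, 18.96% was covered, and coverage was highest between 1500 and 2000 bp, at 91.1%. Over all marked coding genes these shares were 34.2% and 90.2%. Further in, more of the enzyme genes was covered, with 55.0% of the bases from 10000 to 20000 bp in the 35 genes of that length, against 41.5% over 3783 marked coding genes. The last covered base lay a median of 14497 bp from the start, against 7254 bp. The median covered length of a marked enzyme gene was 10197 bp against 6118.5 bp, but its share of the gene was 27.5% against 33.9%. These differences were not tested, and gene length moved with them: the median marked enzyme gene was 43087 bp long and the median marked coding gene 24425 bp.

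**Figure D4:**
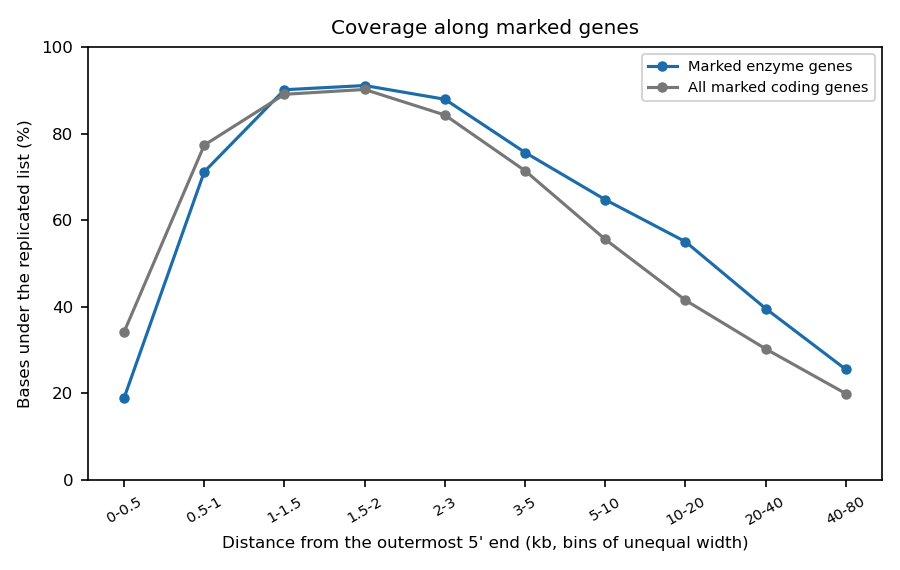
Percentage of bases under the replicated list in bins of distance from the outermost 5′ end, for the 45 marked enzyme genes and for all marked coding genes. Each bin uses the genes long enough to fill it. Both lines rise to about the same peak between 1500 and 2000 bp, and the enzyme genes lie higher from 2000 bp on, at 55.0% against 41.5% between 10000 and 20000 bp.

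The authors' fold of the window's peaks had a median of 15.8 over the 45 marked enzyme genes, at percentile 80.2 of the replicated list, against 11.9 and percentile 69.6 for the marked ones among all coding genes. After Kat6a (30.6) the highest were Setd2 (29.3), Setd5 (28.9), Kat7 (28.8) and Nsd3 (28.6), so 3 of these 5 genes encode SET-domain proteins and 2 encode MYST acetyltransferases. The lowest after Suv39h2 were Sirt6 (3.94), Kat5 (4.86), Sirt3 (5.36) and Kdm4b (5.78), which are the 4 genes marked in the replicated list and not in replicate 1. Among the genes with the most covered sequence, Kmt2c had 17.6, Kdm6a 18.9 and Kdm2a 17.8, above the median of the marked enzyme genes. Hdac5, with the largest covered share, had 14.4, and Kdm1a had 15.8.

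Covered length followed gene length across the 45 marked enzyme genes (Spearman rho = 0.84), and the fold of the window's peaks (rho = 0.74). Over the 6658 marked coding genes the same values were 0.64 and 0.61. All points come from 1 peak list, and a longer gene can hold more covered bases. Nearly all of the covered sequence was intronic. Of the 52 enzyme genes with a covered base, the median had 93.7% of covered bases in introns, against 82.8% of all bases of these genes. The first covered base lay in an intron in 30 and in an exon in 22. Lower shares were seen in short genes, such as Sirt6 with 5.48%, Kat5 with 10.4% and Sirt7 with 30.9%.

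The 2 replicates ranked the enzyme genes marked in both alike and differed in extent. Across these 41 genes, covered bases had a Spearman rho of 0.95 between the replicates, which share a donor identifier. Over the 5962 coding genes marked in both it was 0.89. For the fold of the window's peaks the values were 0.86 and 0.88. Genes marked in 1 list alone do not enter, and gene length, which covered bases follow, is the same in both replicates. Replicate 2 covered more than replicate 1 in each of the 41. Summed over the 68 genes, replicate 1's list covered 685 kb and replicate 2's 1114 kb, 1.63 times as much. Over the whole lists the ratio was 1.80, and the cause of the difference was not tested. The shared bases were a median of 57.2% of the bases in either list, against 61.3% over all coding genes marked in both. Hdac2 (93.8%), Kdm3b (91.2%) and Ezh2 (89.99%) had the most in common, and Kdm4b (3.17%), Sirt3 (14.2%), Hdac4 (18.4%) and Kdm3a (18.98%) the least of those with shared bases. The 8 genes marked in replicate 2 alone were Kdm1b, Kdm4b, Kat2a, Kat5, Hdac10, Sirt3, Sirt4 and Sirt6. Of these Kdm4b, Kat5, Sirt3 and Sirt6 were marked in the replicated list, at folds from 3.94 to 5.78, at or below percentile 38.9 of that list.

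**Figure D5:**
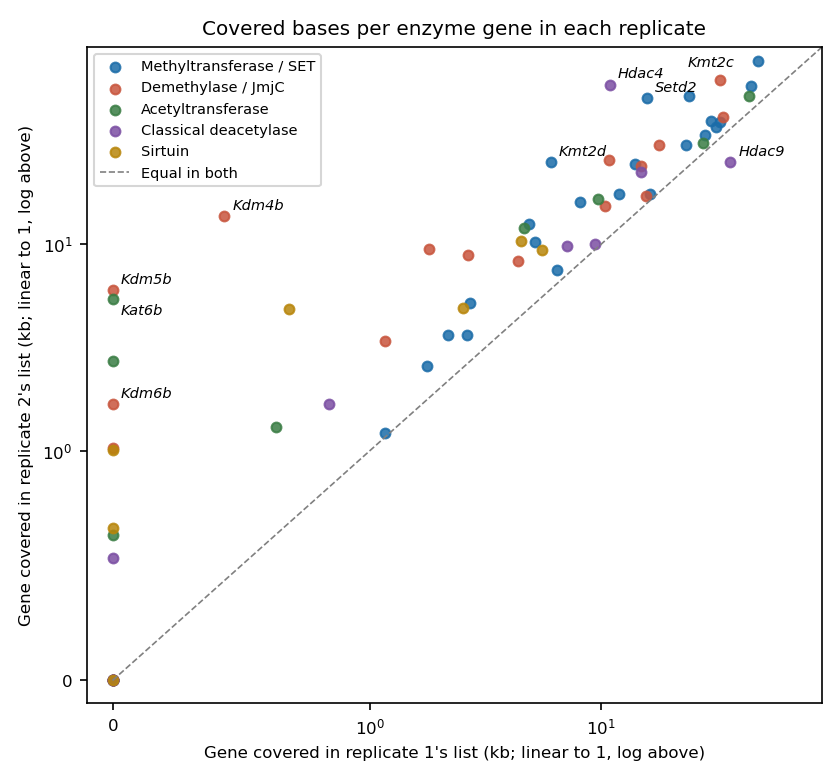
Bases of each enzyme gene under the list of replicate 1 (x axis) and replicate 2 (y axis), in kb, linear up to 1 kb and logarithmic above. Points are the 68 genes by group and the dashed line marks equal values. All genes with bases in both lists lie above the line except Hdac9, and the points at the left edge have bases in replicate 2 alone or in neither.

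Partners of these enzymes that the name rule does not take were also described, from a list written by hand. It was written with earlier results of these data known, so its counts describe that list only. Of 66 genes of complex subunits, other methyltransferases and demethylases, co-activators, co-repressors and acetyl-lysine readers, 55 were marked (83.3%, background 30.6%). In replicate 1 the count was 48 (72.7%, background 27.5%) and in replicate 2 it was 55 (83.3%, background 35.9%). All 13 deacetylase co-repressor genes were marked, among them Ncor1 (28068 bp covered) and Tbl1xr1 (103579 bp), whose products work with Hdac3. Of these, Sin3a had 464 bp of its window under the replicated list and none in either replicate's list, and Sin3b was unmarked in replicate 1. Of 6 genes of Polycomb repressive complex 2, 5 were marked, including Eed (14931 bp) and Suz12 (7179 bp), and Phf19 had none in any list. Among 9 subunits of H3K4 methyltransferase complexes, 6 were marked, among them Wdr5 (5129 bp) and Rbbp5 (11769 bp), and Ash2l, Dpy30 and Men1 were not. Ash2l was marked at another transcript start, Dpy30 had 348 bp in replicate 1 and 2360 bp in replicate 2, and Men1 had none in any list.

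All 6 other demethylase genes were marked, led by Jmjd1c, which had 131321 bp covered, the most of the 66. Jarid2 (114968 bp), Kansl1 (101132 bp) and the co-activator gene Ncoa2 (79137 bp) were also among the 5 with the most. The acetyltransferase genes Ep300 and Crebbp had 33694 bp and 72193 bp. Dot1l, the enzyme of H3K79 methylation, was marked, with 11422 bp under the replicated list, 9687 bp in replicate 1 and 13408 bp in replicate 2. The other unmarked genes were Kansl1 and Brd3, both marked at another start, and Setmar, Prdm9, Tada2a, Tada3 and Brdt, which had no base in any list. Prdm9 and Brdt are known for their roles in germ cells.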

How the data were processed

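H3K79me2 ChIP-seq of 2 replicates was analysed from 4 deposited peak lists on mm10: 1 for each replicate, 1 from pooled alignments and the replicated list, derived from both replicates, per the deposited text notes. The aligner is, like the peak caller and the threshold, not given in the sources used here. How the replicated list was chosen is likewise not stated. Each peak has the authors' fold over the control and the authors' −log10 q, both as deposited. The fold was used only within a list, and 3 peaks of the replicated list had q over 0.05. Tracks of signal were left out.

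In every list, touching or overlapping peaks were joined and intersected with GENCODE M21 genes (GRCm38) with Python 3.11.15 and numpy 2.4.6. The code for covered bases was tested on simulated data. Of the enzyme genes 53 had a promoter in the RefSeq table. No test was made, since the data form 1 group.

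Every enzyme gene is named. Fuller values are given for the 10 with the most covered bases, the 5 marked ones with the largest share, those whose calls differ between lists, unmarked ones with a covered base, and split paralogues. Members, classes and lists were chosen with earlier results of these data known. Alternatives were other peak lists, minimums, windows, starts, folds and overlap rules.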

Additional observations from a re-analysis of the deposited data

How the results depend on the processing

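Over 74 alternative values of 9 results, 68 kept within 1.5 times the reported count, or within the spread between replicates. The 66.2% of enzyme genes marked lay above the background under each setting: 41 were marked without replicate 2 and 49 without replicate 1, and from 35 (first 1 kb only) to 51 (any start) under the others, with 33 of 53 among genes that overlap no other coding gene. The sirtuin count of 4 was 2 without replicate 2 and 5 without replicate 1, 2 with the lower-fold 50% of peaks left out, and 1 of the 4 that overlap no other coding gene (25%, against 28.3% of all such coding genes). Among non-overlapping acetyltransferase genes, 3 of 5 were marked. The median covered share of an enzyme gene, 21.3%, was 11.0% without replicate 2 and 22.3% without replicate 1. With a window of 1 kb, 27 of the 68 genes were marked in both replicate lists (39.7%, background 19.8%), against 41 with the 3 kb window. In the replicated list that window left 14 of 25 methyltransferase genes marked (56%, background 25.2%). This was a smaller share than that of the acetyltransferases (6 of 8, 75%) and close to that of the sirtuins (4 of 7, 57.1%). The cause of these shifts was not tested, except that leaving out overlapping genes leaves fewer genes. The depth of the libraries is unknown and limits what an unmarked gene shows. No paired analysis was possible because the data form 1 group.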

Other observations

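The promoters of the enzyme genes were searched on both strands for 6 short motifs, given by their letters or, for the longer ones of NRF1 and YY1, by name. The NRF1 motif was in the promoters of 10 of the 53 enzyme genes with a RefSeq promoter (18.9%), against 7.48% of 16433 coding genes and 14.2% of the marked ones. It was found at Ehmt1, Ezh1, Ezh2, Kat7, Kdm1a, Kdm4c, Setd6, Sirt6, Suv39h1 and Suv39h2, so both Ezh and both Suv39h genes hold it. The ETS motif CCGGAAGT was at Kat5, Kat7, Kat8, Setd4, Sirt3 and Sirt6 (11.3%, against 5.97% of coding genes and 12.5% of the marked ones). The Sp motif GGGCGGG was in 56.6%, against 38.4% and 54.1%. TATAAA was at Hdac8 and Hdac9, both unmarked, GAGGAAGT, which PU.1 binds, at Kat2b, and the YY1 motif at Suv39h2. TATAAA was in 3.77% of the 53, against 14.3% of coding genes and 7.94% of the marked ones. The PU.1 and YY1 motifs were each in 1.89%, against 3.63% and 1.12% of coding genes and 4.40% and 2.42% of the marked ones. A match is a description of these letters, and no test was made.

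The Y-linked Kdm5d, the counterpart of Kdm5c, lies outside the rule on chromosomes and had no base under any of the 4 lists. Replicate 1's list held 19 peaks on chromosome Y, replicate 2's held 1 and the replicated list none.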
